A study of Homo sapiens with 4 samples.

Results

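The genes described here are the C/D box small nucleolar RNA (snoRNA) genes of Raji cells, chosen as all genes whose symbol starts with SNORD followed by a digit. There were 258 of them among 51714 gene identifiers, of which 34838 had a symbol. Identifiers without a symbol could not be matched by this rule. Raji is an established Burkitt lymphoma B cell line, positive for Epstein-Barr virus. The R1810A cells expressed a recombinant, HA-tagged RPB1 (the largest RNA polymerase II subunit) with alanine in place of a C-terminal domain arginine that can be methylated. The WT cells expressed the same recombinant subunit without the substitution. Both kinds of RPB1 resist α-amanitin, and both kinds of cells were selected with G418 and then kept in α-amanitin for 10 days, which blocks the endogenous polymerase. Both were polyclonal batches made by electroporation of a plasmid.

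Each group had 2 libraries of total RNA depleted of ribosomal RNA, and the labels do not say whether they came from separate cultures, so p-values cover no more than the spread of these libraries, and that spread may be technical. Summed gene counts were 2116444 and 2081636 in the R1810A libraries, and 2326036 and 2991959 in the WT libraries. The 7 B cell markers were all measured and none passed the test; their summed level was 4469 and 5224 CPM (counts scaled to library size) in R1810A and 5135 and 4102 CPM in WT. Of the lists for other cell types, T cell markers summed to 0 and 0 CPM in R1810A and 0.43 and 0.67 CPM in WT, and both erythroid markers had no read. The 3 fibroblast markers, 2 of them without a read, summed to 2.83 and 6.25 CPM in R1810A and 1.29 and 1.34 CPM in WT. The 3 myeloid markers summed to 244 and 159 CPM in R1810A and 195 and 137 CPM in WT, nearly all from CSF1R. Of the others, CD14 had 0 and 1 reads in R1810A and 1 and 0 in WT. LYZ had 9 and 5 reads in R1810A and 8 and 17 in WT. The part of these markers in the results was not tested. POLR2A, the gene for RPB1, averaged 998 ± 64.4 CPM in R1810A and 865 ± 15.1 CPM in WT (SD, n = 2 each). It does not check the labels, because both lines carry a recombinant copy.

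C/D box snoRNAs guide 2′-O-methylation of other RNAs, mainly ribosomal RNA and spliceosomal snRNA, by base pairing next to their D or D′ box, while the bound protein fibrillarin transfers the methyl group. In human cells most are cut out of introns of host genes transcribed by RNA polymerase II, some of which encode proteins and some of which are noncoding. A few, such as U3 (SNORD3), U8 (SNORD118) and U13 (SNORD13), are transcribed from their own promoters and act in ribosomal RNA processing or modification.

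The 5 members whose level differed between the groups by the test used below are shown first, in DNA letters from the transcripts of GENCODE release 29 with GRCh38 coordinates. Capitals mark the C box TGATGA or its closest match with 1 mismatch within the first 30 bases, and the D box CTGA within the last 20 bases. SNORD97 lies at chr11:10801467-10801608 on the minus strand in EIF4G2. SNORD12 lies at chr20:49280683-49280772 on the plus strand in ZFAS1. SNORD99 lies at chr1:28578749-28578822 on the minus strand in SNHG12. SNORD8 lies at chr14:21397292-21397401 on the minus strand in CHD8. SNORD105 lies at chr19:10107651-10107735 on the plus strand in PPAN.
SNORD97: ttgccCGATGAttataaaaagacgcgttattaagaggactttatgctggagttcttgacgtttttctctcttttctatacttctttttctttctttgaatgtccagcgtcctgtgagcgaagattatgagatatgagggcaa
SNORD12: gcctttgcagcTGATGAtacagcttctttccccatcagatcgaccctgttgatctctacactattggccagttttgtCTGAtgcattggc
SNORD99: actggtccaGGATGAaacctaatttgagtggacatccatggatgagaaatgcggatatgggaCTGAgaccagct
SNORD8: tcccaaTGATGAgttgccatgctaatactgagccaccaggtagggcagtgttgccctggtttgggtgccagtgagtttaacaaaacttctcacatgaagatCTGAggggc
SNORD105: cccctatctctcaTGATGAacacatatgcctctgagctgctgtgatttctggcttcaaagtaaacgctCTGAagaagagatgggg

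SNORD17, SNORD14B and SNORD14D were added to the sequences after their values were seen. SNORD17, at chr20:17962710-17962946 on the minus strand in SNX5, held more reads than any other member. SNORD14B, at chr11:17075779-17075868 on the minus strand in RPS13, and SNORD14D, at chr11:123058909-123058995 on the minus strand in HSPA8, are copies of the U14 snoRNA that had different values.
SNORD17: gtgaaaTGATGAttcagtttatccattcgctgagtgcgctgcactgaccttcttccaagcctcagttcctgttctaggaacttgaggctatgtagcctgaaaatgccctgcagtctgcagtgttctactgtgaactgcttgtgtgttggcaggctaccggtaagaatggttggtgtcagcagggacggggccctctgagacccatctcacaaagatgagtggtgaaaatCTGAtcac
SNORD14B: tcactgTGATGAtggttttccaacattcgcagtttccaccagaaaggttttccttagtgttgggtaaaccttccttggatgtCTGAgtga
SNORD14D: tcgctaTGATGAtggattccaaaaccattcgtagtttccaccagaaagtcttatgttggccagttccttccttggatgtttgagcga

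Exact TGATGA in the first 30 bases together with CTGA in the last 20 was present in 173 of the 258 members (67.1%), read on the sense strand. It was present in 81 of 9076 other annotated transcripts of 59 to 237 bases (0.892%). On the opposite strand none of the members and 0.0771% of the other transcripts held both. Among the 25 members that entered the test, 17 held both boxes (68.0%). SNORD97 and SNORD14D had no CTGA in the last 20 bases, and SNORD97 and SNORD99 had a C box with 1 mismatch.

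Reads from 83 of the 258 members were seen in at least 1 library, and from 39 in every library; 175 members had no read. A test across all 10674 genes with enough reads, by edgeR's quasi-likelihood method with Benjamini-Hochberg adjustment, included 25 members. Those 25 held 95.3% of the 8512 C/D snoRNA reads. The 58 members with reads that were too few for the test held 397 reads in all and at most 37 each. Levels were low: 16 of the 25 tested members had under 10 reads in some library, and the median of their mean count was 17.5 reads. In these bulk libraries less RNA per cell and fewer cells that make an RNA cannot be told apart.

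Summed over all 258 genes, C/D snoRNAs took a larger share of the gene counts in both R1810A libraries than in either WT library. The R1810A libraries had 3353 and 2232 reads from these genes, and the WT libraries 1198 and 1729. As a share of all gene counts that was 0.158% (95% exact Clopper-Pearson interval 0.153 to 0.164) and 0.107% (0.103 to 0.112) in R1810A. In WT it was 0.0515% (0.0486 to 0.0545) and 0.0578% (0.0551 to 0.0606). The intervals cover counting error only. The groups averaged 0.133% ± 0.0362 in R1810A and 0.0546% ± 0.00444 in WT (SD, n = 2 each), a ratio of 2.43. A two-sided exact permutation test gave p = 0.333, the smallest value that 2 libraries against 2 allow.

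SNORD17, a guide for 28S ribosomal RNA, gave 52.9% of all C/D snoRNA reads and carried most of the difference between the R1810A libraries. Its reads were 1983 and 950 in R1810A and 579 and 989 in WT. After scaling to library size the groups did not overlap, with 951 and 457 CPM in R1810A and 254 and 329 CPM in WT. Its log2 fold change was 1.27 (SE 0.26), and its adjusted p of 0.087 in edgeR did not pass 0.05. The value rested on R1810A replicate 1: it was 0.64 (adjusted p = 0.153, edgeR) without that library and 1.70 (adjusted p = 2.17e-12, edgeR) without R1810A replicate 2, and DESeq2 gave 1.27 with an adjusted p of 1.00. Without SNORD17, the remaining C/D genes took 0.0647% and 0.0616% of counts in R1810A, and 0.0266% and 0.0247% in WT. The ratio of the group means without it was 2.46, so the higher share did not rest on SNORD17. The 233 members outside the test, 175 of them without a read, had 145 and 111 reads in R1810A and 63 and 78 in WT, a ratio of shares of 2.29.

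**Figure D1:**
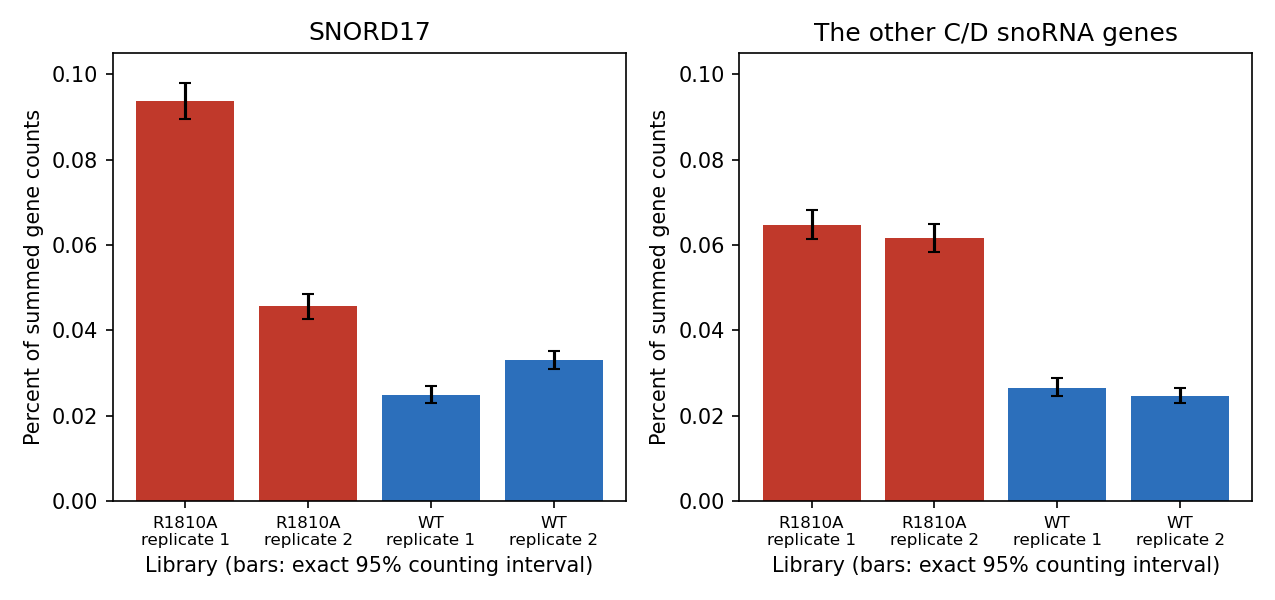
Share of all gene counts (percent, vertical axis) that came from SNORD17 (left panel) and from the other C/D snoRNA genes (right panel) in each library, with R1810A left of WT and error bars for the 95% exact intervals of counting error. Without SNORD17 the R1810A libraries were at 0.0647% and 0.0616% and the WT libraries at 0.0266% and 0.0247%, and SNORD17 was highest in R1810A replicate 1.

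Of the 25 tested members, 5 rose in R1810A and 0 fell at an adjusted p under 0.05 (edgeR), where 0.347% of all tested genes rose and 0.00937% fell. At an unadjusted p under 0.05, 22 of the 25 were higher in R1810A and 0 lower, against 4.94% of all tested genes higher and 3.06% lower. In 24 of 25 members each R1810A library had a higher CPM than either WT library, against 19.8% of all tested genes. SNORD14B was the exception, and SNORD14E was separated by only 5.29 CPM in the lower R1810A library against 5.26 CPM in the higher WT library. The median log2 fold change of the 25 was 1.72, with a range of -0.17 to 3.21, and the median of all tested genes was 0.00. A log2 fold change above 1 was found in 21 of the 25, against 1.16% of all tested genes. With DESeq2 6 members rose, where 0.365% of all tested genes did, and with limma-voom 3 rose, where 0.225% did. With every gene that had a read in the test, 15 of 83 members rose, against 0.361% of all genes.

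Many members entered the test through their R1810A reads. Of the 25, 8 reached the filter's level of 4.50 CPM in both WT libraries. A further 16 reached it in both R1810A libraries but not in both WT libraries, and SNORD14B did so in neither pair. Of the 16, SNORD105, SNORD99, SNORD15A, SNORD117 and SNORD14E reached the level in 1 WT library. For them 1 R1810A library at that level was enough. The others of the 16 could hardly have passed the filter without being higher in R1810A. The 8 members that reached the level in both WT libraries were SNORD17, SNORD15B, SNORD10, SNORD12, SNORD97, SNORD89, SNORD105B and SNORD46. Their log2 fold changes ran from 0.56 to 2.72 with a median of 1.11. All were higher in both R1810A libraries than in either WT library, and 2 of them (SNORD97 and SNORD12) passed the test. SNORD99, SNORD8 and SNORD105, which also passed, were among the 16 that reached the level in both R1810A libraries but not in both WT libraries. Among the 58 members with reads outside the test, 24 were higher in both R1810A libraries and 5 were lower in both. Of 10819 genes outside the test with 1 to 37 reads, 13.2% were higher in both and 8.24% lower in both. Medians over tested members and counts of those that rose, here and below, describe members let in largely by their R1810A reads.

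SNORD97 guides methylation of the elongator methionine transfer RNA. It had 102 and 80 reads in R1810A and 11 and 24 in WT. The groups did not overlap and averaged 43.7 ± 7.37 CPM in R1810A and 6.40 ± 2.24 CPM in WT (SD, n = 2 each). The log2 fold change was 2.72 (SE 0.28, adjusted p = 0.00158, edgeR), a ratio of 6.60.

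SNORD12 and SNORD99, both guides for 28S ribosomal RNA, also rose, and both lie in noncoding host genes. SNORD12 had 117 and 142 reads in R1810A and 37 and 55 in WT. Its mean was 62.2 ± 8.63 CPM in R1810A and 17.3 ± 1.48 CPM in WT, with a fitted log2 fold change of 1.84 (SE 0.19, adjusted p = 0.00158, edgeR). It was the member with the most reads among the 5, and the groups were well apart. SNORD99 had 38 and 46 reads in R1810A and 11 and 8 in WT. Its mean was 20.2 ± 2.76 CPM in R1810A and 3.74 ± 1.53 CPM in WT, with a fitted log2 fold change of 2.46 (SE 0.35, adjusted p = 0.012, edgeR).

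SNORD8, a guide for the U6 spliceosomal RNA, had 34 and 26 reads in R1810A and 7 and 3 in WT. The log2 fold change was 2.88 (SE 0.47, adjusted p = 0.027, edgeR). SNORD105, a guide for 18S ribosomal RNA, had 36 and 67 reads in R1810A and 8 and 18 in WT. The log2 fold change was 2.33 (SE 0.39, adjusted p = 0.031, edgeR), and the 2 R1810A libraries lay further apart than for the other 4 members that rose, at 24.7 ± 10.6 CPM against 4.75 ± 1.76 CPM in WT (SD, n = 2 each).

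None of the 5 calls held when WT replicate 2, the deepest library, was left out, although each kept its direction; WT is then 1 library, assumed to vary like the R1810A libraries. The log2 fold changes were then 3.16 for SNORD97, 1.93 for SNORD12, 2.05 for SNORD99, 2.21 for SNORD8 and 2.80 for SNORD105. The adjusted p-values without it in edgeR were 0.054 for SNORD97, 0.060 for SNORD12, 0.172 for SNORD99, 0.239 for SNORD8 and 0.208 for SNORD105. SNORD8 moved most, to 3.78 without WT replicate 1. Without R1810A replicate 2 the median log2 fold change over the tested members was 1.70. SNORD105 (adjusted p = 0.090) and SNORD8 (0.069) also missed the threshold by limma-voom, as did SNORD8 without R1810A replicate 1 (0.053) and SNORD105 without WT replicate 1 (0.050) in edgeR.

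**Figure D2:**
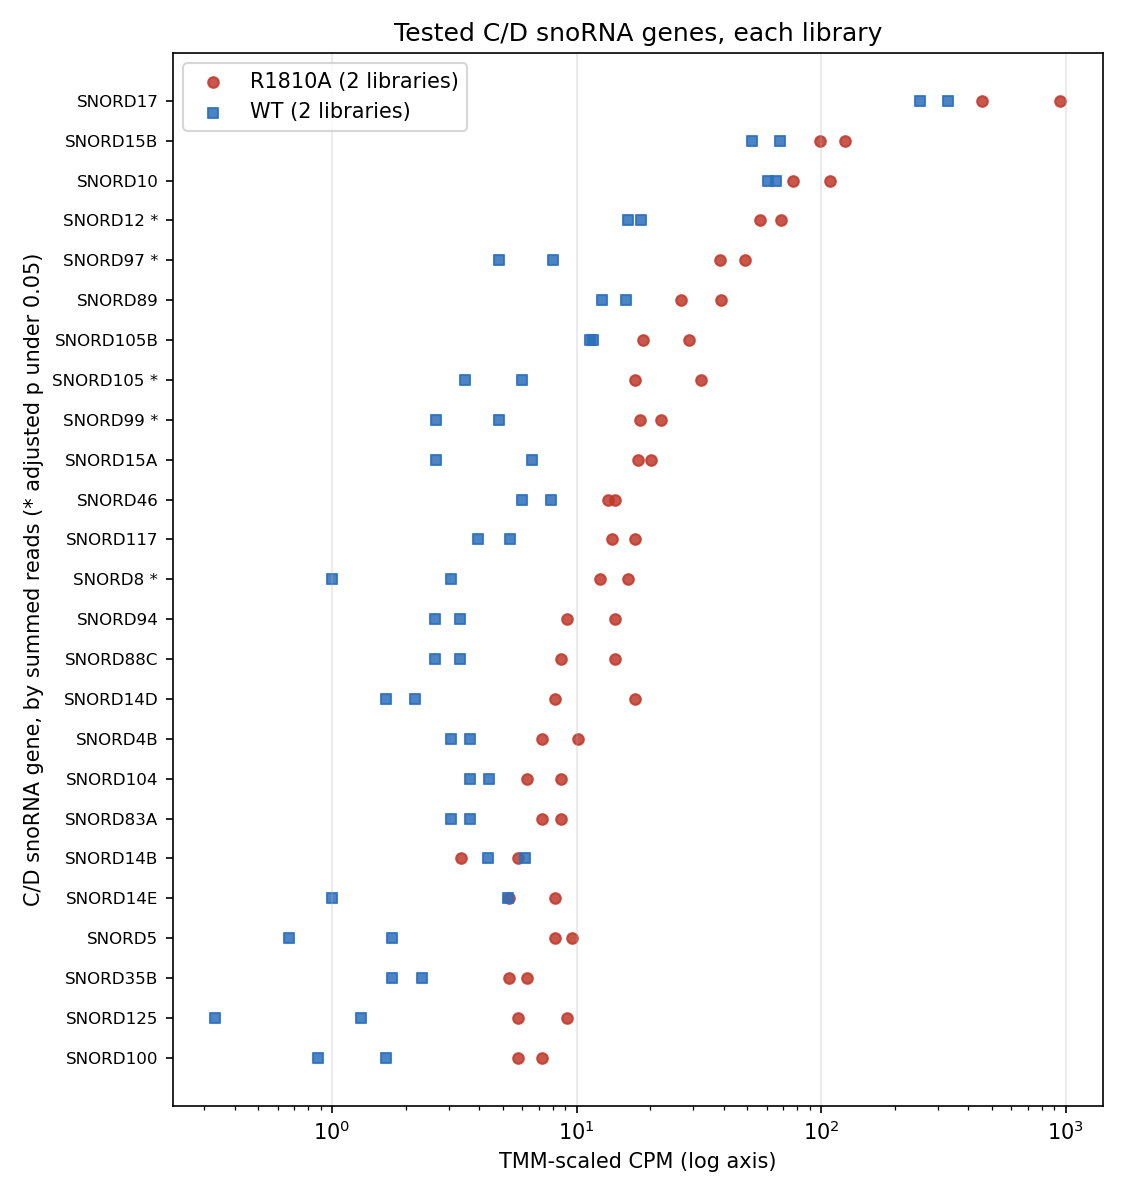
Level (CPM, log axis) of each of the 25 tested C/D snoRNA genes in the 2 R1810A and the 2 WT libraries, 1 point per library, with genes in order of their reads and a star at the 5 that rose. Both R1810A points lie right of both WT points in 24 of 25 genes, and SNORD14B is the exception.

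The tested members were also read by the RNA they are known to guide. Of 8 guides for 28S ribosomal RNA, 2 rose (SNORD12 and SNORD99). SNORD15B had 261 and 206 reads in R1810A and 155 and 157 in WT, and its log2 fold change of 0.91 (SE 0.17) did not pass the edgeR test at an adjusted p of 0.058. SNORD15A had fewer reads, 42 and 37 in R1810A and 15 and 8 in WT, with a log2 fold change of 2.10 and an adjusted p of 0.052. The remaining 3 did not pass either. SNORD46 had 28 and 30 reads in R1810A and 18 and 18 in WT (log2 fold change 1.02). SNORD104 had 18 and 13 reads in R1810A and 10 and 11 in WT (log2 fold change 0.89). SNORD35B had 11 and 13 reads in R1810A and 4 and 7 in WT (log2 fold change 1.45).

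Of 5 guides that act on 18S ribosomal RNA, SNORD105 rose and the other 4 did not pass. SNORD100 had 12 and 15 reads in R1810A and 2 and 5 in WT, a log2 fold change of 2.25 with an adjusted p of 0.186 in edgeR. The other 3 are copies of U14, which also takes part in ribosomal RNA cleavage. SNORD14D had 17 and 36 reads in R1810A and 5 and 5 in WT, with a fitted log2 ratio of 2.71 (adjusted p = 0.061, edgeR). SNORD14E had 17 and 11 reads in R1810A and 12 and 3 in WT, a log2 fold change of 1.21. SNORD14B had 12 and 7 reads in R1810A and 14 and 13 in WT, a fitted log2 fold change of -0.17 (SE 0.47, adjusted p = 0.946, edgeR), so its groups overlapped and its sign changed when single libraries were left out. The difference between U14 copies was not tested. SNORD14B and SNORD14D were 77.1% identical with a longest shared run of 16 bases.

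Guides for U6 snRNA had 3 tested members. SNORD8 rose, and SNORD10 and SNORD94 did not pass. SNORD10, one of the members with the most reads, had 227 and 160 in R1810A and 150 and 183 in WT, a fitted log2 fold change of 0.56 (SE 0.17, adjusted p = 0.372, edgeR). SNORD94 had 30 and 19 reads in R1810A and 6 and 10 in WT, a fitted log2 fold change of 1.94 (adjusted p = 0.099, edgeR). SNORD9, SNORD67 and SNORD7, also known as U6 guides, had 4 and 2, 2 and 2, and 0 and 1 reads in R1810A, against 1 and 0, 1 and 0, and 0 and 0 in WT. The longest stretch of perfect antisense match to U6 was 11 bases in SNORD7, SNORD8, SNORD9 and SNORD10, 10 bases in SNORD67 and 9 in SNORD94, where most of the 258 members had 5 to 7. A stretch of 9 was also present in members not named here as U6 guides, among them SNORD16, SNORD23 and SNORD111.

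The other 8 tested members were SNORD89, SNORD105B, SNORD117, SNORD88C, SNORD4B, SNORD83A, SNORD5 and SNORD125. None of the 8 passed. All but SNORD89 and SNORD105B, 6 in number, reached the filter level in both R1810A libraries but not in both WT libraries. SNORD125 had 12 and 19 reads in R1810A and 3 and 1 in WT, a log2 fold change of 3.21 (SE 0.65) with an adjusted p of 0.079 in edgeR. That value rested on few WT reads: leaving out WT replicate 2 gave 2.45, and leaving out WT replicate 1 gave 4.28. SNORD5 had 17 and 20 reads in R1810A and 4 and 2 in WT, a log2 fold change of 2.91 with an adjusted p of 0.058 in edgeR. SNORD89 was the most deeply read of the 8, with 56 and 81 reads in R1810A and 29 and 48 in WT, and its log2 fold change of 1.18 (SE 0.26) had an adjusted p of 0.110 in edgeR. SNORD117 had 36 and 29 reads in R1810A and 9 and 16 in WT (log2 fold change 1.72, adjusted p = 0.067, edgeR). At the low end, SNORD4B had 15 and 21 reads in R1810A and 7 and 11 in WT (log2 fold change 1.33). SNORD83A had 18 and 15 reads in R1810A and 7 and 11 in WT (log2 fold change 1.21).

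Levels were also read per gene length, on the deposited RPKM scale. The order is uncertain for SNORD12 and SNORD10, which lie wholly in host exons, and because detection differed with length. SNORD17 was the highest in each group and averaged 1527 ± 786 RPKM in R1810A and 684 ± 124 RPKM in WT (SD, n = 2 each). SNORD15B averaged 393 ± 73.0 RPKM in R1810A and 229 ± 42.5 RPKM in WT. SNORD12 averaged 353 ± 41.4 RPKM in R1810A and 107 ± 9.00 RPKM in WT. SNORD10 averaged 335 ± 88.4 RPKM in R1810A and 248 ± 13.7 RPKM in WT. In R1810A, SNORD15B, SNORD12 and SNORD10 lay within each other's spread, while in WT SNORD12 lay below the other 2 by more than the spread.

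By host gene in the annotation, 108 members lay in protein-coding genes, 118 in noncoding genes, 10 belonged to the families with their own promoter, and 22 had no host found. Coding hosts held 7860 of the 8512 reads, and 22 of the tested members, of which 3 rose (SNORD97, SNORD8 and SNORD105), with a median log2 fold change of 1.58. Reads in this class were 3131 and 1981 in R1810A and 1119 and 1629 in WT, a ratio of mean shares of 2.37. Without SNORD17 the class took 0.0519% ± 0.00333 of counts in R1810A and 0.0223% ± 0.00129 in WT (SD, n = 2 each), a ratio of 2.33.

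Noncoding hosts held 645 reads and 3 tested members, of which SNORD12 and SNORD99 rose and SNORD104, in SNHG25, did not pass (log2 fold change 0.89, adjusted p = 0.634, edgeR). Reads were 222 and 248 in R1810A and 78 and 97 in WT. The share averaged 0.0112% ± 0.00101 in R1810A and 0.00330% ± 7.87e-05 in WT (SD, n = 2 each), a ratio of 3.40. Whether the ratio differed between coding and noncoding hosts was not tested.

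Most members in noncoding hosts belong to imprinted arrays. SNORD113 (8 genes) and SNORD114 (29 genes), in MEG8, and SNORD115 (45 genes), in SNHG14, had no read in any library, where 3 counts would be 1.42 and 1.44 CPM in R1810A and 1.29 and 1.00 CPM in WT. SNORD116, also in SNHG14, had reads from 12 of 28 genes, 21 and 19 in R1810A and 8 and 9 in WT, a ratio of shares of 2.95. Copies within an array resemble each other, so a read can be lost or split between them by the counting.

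The main U3 gene, SNORD3A, was not analysed here, so the level of U3 is not given by these data. The 10 genes of this class that were in the files, minor copies of U3 among them, gave almost no reads. SNORD118 had 0 reads in all 4 libraries and lies wholly within an exon of TMEM107 in the annotation, so its reads may not be separable from that gene. SNORD13 had 0 and 3 reads in R1810A and 0 and 2 in WT, and SNORD3J had 0 and 0 in R1810A and 1 and 0 in WT. With 6 reads in 10 genes, no difference was detectable at this depth.

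Tested members in ribosomal protein genes numbered 8, with 0 that rose and a median log2 fold change of 1.27. The 17 in other hosts included all 5 that rose and had a median of 1.91. The difference between these classes was not tested.

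**Figure D3:**
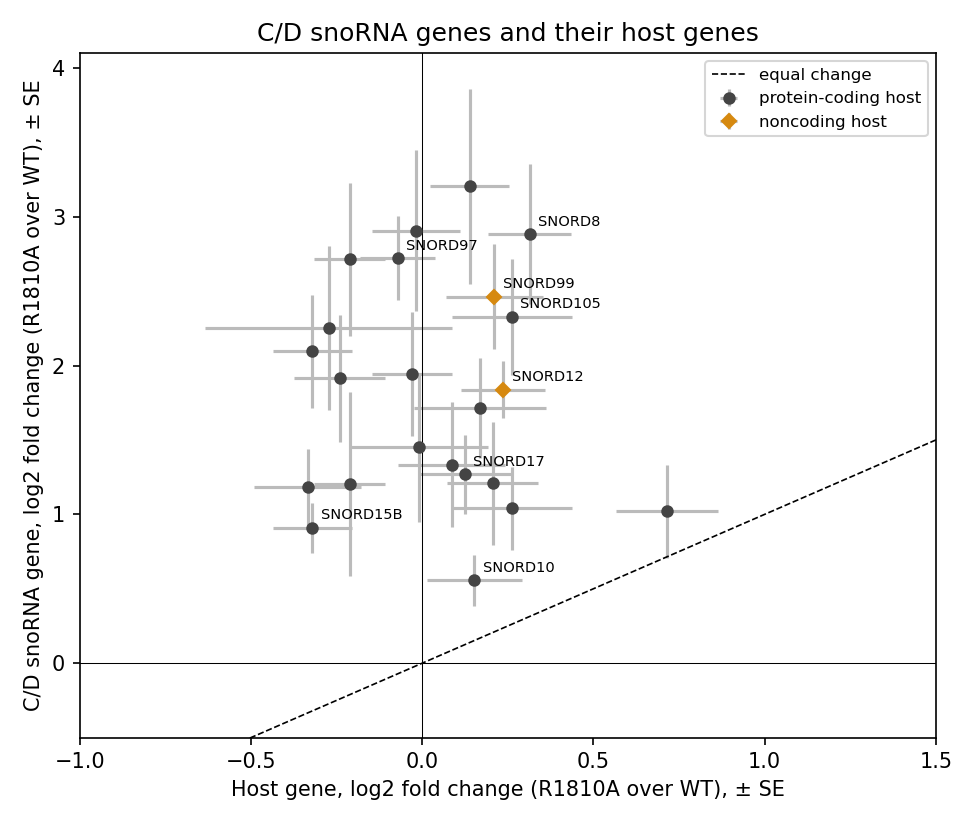
Log2 fold change (R1810A over WT) of tested C/D snoRNA genes on the vertical axis against that of their host gene on the horizontal axis, 1 point per pair with bars for the SE, diamonds for noncoding hosts and a dashed line for equal change. All 23 points lie above the dashed line, and the hosts lie between -0.33 and 0.71. For 15 of the points the member reached the filter level in both R1810A libraries but not in both WT libraries. SNORD14B and SNORD104 have no point, because their hosts were not in the test.

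For 23 tested members the host gene was tested as well, and none of the 20 distinct hosts rose or fell in edgeR. SNORD14B and SNORD104 are not among the 23, because their hosts were not in the test. At an unadjusted p under 0.05, 2 hosts were higher, among them CHD8, and RPS3 was lower in R1810A. Host log2 fold changes had a median of 0.11 and ran from -0.33 to 0.71. Each of the 23 members had a larger log2 fold change than its host. The share of all nested genes with a larger value than their host was not counted. Of the 23 members, 15 did not reach the filter level in both WT libraries and were let in largely by their R1810A reads. EIF4G2, a translation factor gene and host of SNORD97, averaged 1156 ± 16.7 CPM in R1810A and 1215 ± 86.7 CPM in WT (log2 fold change -0.07, SE 0.11, adjusted p = 0.898, edgeR). ZFAS1, host of SNORD12, averaged 159 ± 6.09 CPM in R1810A and 135 ± 14.0 CPM in WT (log2 fold change 0.24, SE 0.12, adjusted p = 0.654, edgeR). The hosts of the other members that rose were SNHG12 (log2 fold change 0.21), CHD8, a chromatin remodeller (0.31), and PPAN, a ribosome biogenesis factor (0.26), none past the threshold.

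The log2 ratio of snoRNA reads to host reads within a library needs no scaling to library size. Here 0.5 read was added to each, which shifts the ratio where reads are few. In SNORD97 it was -4.57 and -4.88 in R1810A and -7.98 and -7.14 in WT, a difference of 2.84. In SNORD12 it was -1.53 and -1.17 in R1810A and -3.14 and -2.76 in WT, a difference of 1.60. SNORD17 stood above its host SNX5, a sorting nexin gene, in each library, with log2 ratios of 3.43 and 2.55 in R1810A and 1.79 and 2.06 in WT.

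In 21 of the 23 pairs both R1810A ratios were above both WT ratios, and in 0 pairs below. Of the 23 pairs, 15 hold a member that reached the filter level in both R1810A libraries but not in both WT libraries. All 15 were higher. Of the 8 pairs whose member reached the level in both WT libraries, 6 were higher and the median difference was 1.14. Higher ratios were found for 48.2% of 141 tested nested genes of any kind, these members and other snoRNAs included, and for 7.35% of the 68 nested genes that are no small RNA. The median difference over the 23 pairs was 1.64. The groups overlapped in 2 pairs, among them SNORD10 in EIF4A1, with -0.10 and -0.64 in R1810A and -0.86 and -0.63 in WT.

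Of the 25 tested members, 12 overlap an exon of their host in the annotation, 9 of them wholly, and reads of the pair cannot be told apart there. The 12, which include SNORD97, SNORD12 and SNORD8, had a median log2 fold change of 1.88. The 13 without such overlap, which include SNORD99 and SNORD105, had a median of 1.27.

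Fold changes went little with length. The 16 tested members under 100 bases had a median log2 fold change of 1.78, with 3 that rose, and the 9 of 100 bases or more a median of 1.27, with 2 that rose. Across the 25 members, which share the same 4 libraries, Spearman's rho of length with log2 fold change was -0.08. Length went with the number of reads instead, with a rho of 0.53, and reads went with log2 fold change at -0.22.

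**Figure D4:**
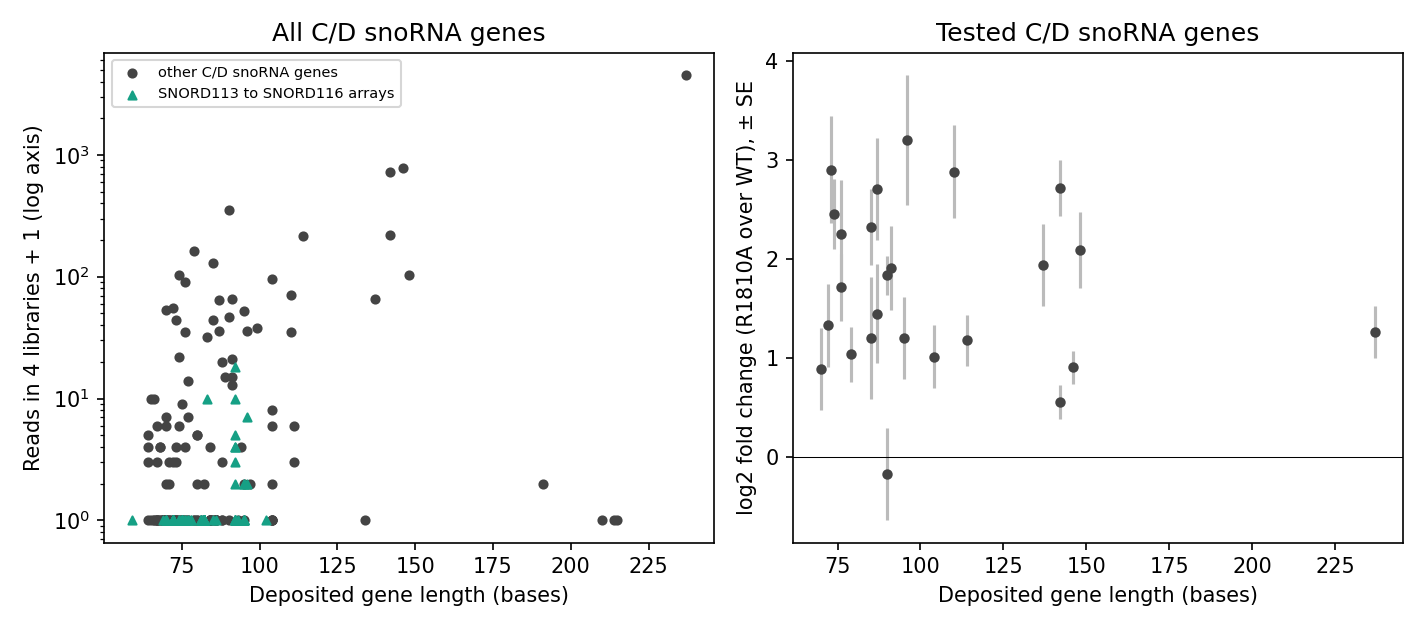
Deposited gene length (bases, horizontal axes) against reads in the 4 libraries plus 1 on a log axis for all 258 C/D snoRNA genes (left, array genes as triangles), and against log2 fold change (R1810A over WT) with its SE for the 25 tested genes (right). Spearman's rho over the tested genes was -0.08 for log2 fold change and 0.53 for reads.

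Longer genes were also detected more often. Outside the SNORD113 to SNORD116 arrays, 38.3% of 60 genes of 59 to 74 bases had a read, 40.8% of 49 genes of 75 to 89 bases, and 69.6% of 23 genes of 90 to 104 bases. Of the 16 genes of 110 to 237 bases, none of which is in the arrays, 75.0% had a read. Genes under 110 bases gave 605 and 663 reads in R1810A and 234 and 300 in WT. Those of 110 bases or more, without SNORD17, gave 765 and 619 in R1810A and 385 and 440 in WT. Both length classes had a larger share of counts in each R1810A library than in either WT library.

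Other small RNA genes rose too, although they were longer than most tested C/D genes, of which 17 were under 110 bases. Of tested genes within the range of 70 to 237 bases, 16 of 39 H/ACA box snoRNA genes (123 to 204 bases) rose, with a median log2 fold change of 1.82, and 6 of 16 other small nuclear, Cajal body or nucleolar RNA genes (114 to 191 bases), with a median of 2.62. Of 30 short genes of no small RNA type, 6 rose and 0 fell, with a median of -0.01. H/ACA snoRNAs, which guide pseudouridylation, gave 8515 and 5048 reads in R1810A and 2907 and 3514 in WT. C/D reads per H/ACA read were 0.394 and 0.442 in R1810A and 0.412 and 0.492 in WT, and the groups overlapped (two-sided exact permutation p = 0.667). No difference between the classes was detectable with 2 libraries a group.

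Families with several similar genes had values that were not alike. SNORD88C had 30 and 18 reads in R1810A and 6 and 10 in WT, while SNORD88B had 1 and 2 in R1810A and 4 and 7 in WT, and SNORD88A had 10 and 7 in R1810A and 2 and 1 in WT. Pairs of these 3 genes are 87.9% to 91.2% identical, with longest shared runs of 20 to 23 bases, so their reads may be split between them and each value is uncertain. SNORD15A and SNORD15B are 67.5% identical, and SNORD105 and SNORD105B 67.4%. SNORD105B, which shares PPAN with SNORD105, had 39 and 60 reads in R1810A and 26 and 35 in WT, a fitted log2 fold change of 1.04 (SE 0.28, adjusted p = 0.253, edgeR).

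The genes for the proteins of the C/D particle did not pass the test of RNA counts in either direction. Of the 4 core protein genes, FBL encodes the methyltransferase fibrillarin and NOP56, NOP58 and SNU13 encode the proteins that hold it on the RNA; their median log2 fold change was -0.03. The smallest p-values belonged to NOP58, with a fitted log2 fold change of -0.10 (SE 0.12, adjusted p = 0.851, edgeR), and FBL, with -0.08 (SE 0.10, adjusted p = 0.877). Of the assembly factor genes 7 of 8 were tested and 0 passed, with a median of 0.03. RUVBL1, an ATPase of the assembly machinery, had a fitted log2 fold change of -0.31 (SE 0.11, adjusted p = 0.481, edgeR), and ZNHIT6 one of 0.23 (SE 0.21, adjusted p = 0.806). Of 12 genes for snoRNA processing, cap binding and transport 0 passed, with a median of 0.09, and the cap binding genes NCBP2 and NCBP1 had log2 fold changes of 0.24 (adjusted p = 0.672, edgeR) and 0.25 (adjusted p = 0.677).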

How the data were processed

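RNA was sequenced from 4 libraries of Raji cells, 2 R1810A and 2 WT, grouped by the labels. The files hold the authors' raw read count per Ensembl gene, per the file headers, with an RPKM value, a gene length and a total read number. The submitters' processing notes name Bowtie and hg19. For the counter, annotation release, strand and multi-mapping reads, settings were not given in the sources used here. In every file the deposited RPKM equalled count over length over total reads within 0.001% and was not tested. The deposited total read number was 4017398 and 4128532 in R1810A, and 4097635 and 5405229 in WT; what it counts is not stated.

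Symbols came from a name table, and hosts, exons and sequences from GENCODE release 29 (GRCh38), not the build used for counting; 251 of 258 members had the same length there, and 17 members share a symbol. Counts were tested with edgeR 4.0.16 under R 4.3.3 (TMM, filterByExpr, glmQLFit, glmQLFTest, group as the only term, Benjamini-Hochberg adjustment at 0.05), tested on simulated data first. CPM of single genes uses TMM-scaled library sizes; marker sums and the level of 3 counts use summed gene counts. The SE is the absolute log2 fold change over the square root of F. At this depth genes of few reads have wide error. Alternatives were other scalings, filters, DESeq2 1.42.0, limma 3.58.1, a replicate block and leaving out each library. The members named were those past the threshold, then those with the most reads up to 25, families with their own promoter, hosts, and per list the 2 genes of smallest p. Members, lists and roles were chosen with earlier results of these data known. The labels do not say that replicate numbers pair the libraries. Deviations from the group means of the 2 libraries numbered 1 had a correlation of -0.04. With 2 libraries a group that value cannot settle whether they were paired. One host gene is not reported here.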

Additional observations from a re-analysis of the deposited data

How the results depend on the processing

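No member fell under any alternative, and 24 of the 25 tested members kept a positive fold change. With no filter beyond 1 read, 67 of 83 members had a positive one, and the share of all genes was not counted. The number that rose was 5, where 0.347% of all tested genes rose. It was 15 of 83 with no filter beyond 1 read (0.361% of all genes), 6 with DESeq2 (0.365%) and 3 with limma-voom (0.225%). It was 9 without TMM and 9 with edgeR's robust fit. Leaving out 1 library gave 0 (without WT replicate 2) to 11 (without R1810A replicate 2). With the replicate block the number was 13, but the labels do not say that replicate numbers pair the samples. For settings with no percent here, the share of all genes that rose was not counted. Those counts of members therefore cannot be set against it. The median log2 fold change of 1.72 was 1.60 with the deposited total reads as library size, 1.25 with no filter, and 1.54 to 1.76 with 1 library left out. Over members without host-exon overlap, an alternative chosen after seeing the data as was the share without SNORD17, it was 1.27. The share of counts differed by 0.0782 percentage points, 0.0375 without SNORD17 and 0.0526 to 0.104 with 1 library left out. For genes with their own promoter the difference of 1.7e-05 points became -5.5e-05 without R1810A replicate 2 (range to 8.9e-05), on 6 reads. The log2 fold change of SNORD14B, -0.17, was 0.07 when WT replicate 1 and 0.15 when R1810A replicate 2 was left out, and -0.61 at the lowest. The cause of these changes was not tested.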
